A study of Mus musculus with 12 samples.

Results

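mmu-miR-101a and mmu-miR-101b (hereafter miR-101a and miR-101b) are the 2 mouse miR-101 miRNAs selected here out of 696 mouse miRNAs on the array, of which 334 were detected on at least 1 array. Both were chosen by name, as a pair described by a rise between days 3 and 5, and that description was made from the signals of these same arrays. The differences of both miRNAs between days are therefore given as a description, without a test. For miR-101a the signal was 3.34 times higher at day 5 than at day 3 after normalization (1.74 on the log2 scale). This restates the values it was chosen by and is no support for the description. The arrays went against the description for miR-101b, whose normalized signal differed by -0.01 on the log2 scale between the same days. The pair is therefore called by its names and not by a late rise.

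The cultures were started from bone marrow of male C57BL/6 mice 6 to 8 weeks old, from which B220/CD45R-positive and CD3-positive lymphocytes had been removed with magnetic beads. All of them received 30 ng/ml M-CSF, on which osteoclast precursors depend, and 30 ng/ml RANKL, which drives these cells to become bone-resorbing osteoclasts, so that the groups differed by design in time of culture alone and no untreated group was compared. Total RNA of 4 independent cultures each was taken after 1, 3, and 5 days and hybridized to 12 single-color arrays, 1 culture per array. The starting cells were a mixture enriched for precursors, and the array holds miRNAs only, so the osteoclast identity of the cultures could not be checked by its usual mRNA markers.

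The arrays of days 1 and 5 lay together on slide 1, while those of day 3 lay on slide 2 with a scan of its own. Day 3 and its slide cannot be told apart in any comparison with day 3, whereas days 1 and 5 were compared within a slide. Over all miRNAs, 62.9% were called changed over the days (limma F test, adjusted p under 0.01), with 52.4% between days 1 and 3, 25.4% between days 3 and 5, and 60.8% between days 1 and 5. The median number of miRNAs detected per array was 252 at day 1 (range 233 to 276), 214.5 at day 3 (211 to 226), and 251.5 at day 5 (186 to 269). Thus the array with the fewest detected miRNAs was one of day 5. In such bulk RNA, a change in the share of 1 cell type and a change in the amount of a miRNA per cell cannot be told apart.

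miRNAs are short RNAs that guide Argonaute proteins to messenger RNAs, chiefly by pairing of the seed, bases 2 to 8 counted from the 5′ end. miR-101 is known as a repressor of Ezh2, the enzyme that trimethylates histone H3 at lysine 27, of Ptgs2 (cyclooxygenase-2), and of the survival factor Mcl1. In osteoclasts, Ezh2 is known for silencing genes that hold back differentiation, and Ptgs2 makes the prostaglandins that promote resorption through osteoblasts.

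The mature sequences of the miR-101 miRNAs, and of the 2 relatives on the array that hold the letters ACAGUA (bases 2 to 7 of miR-101a) within bases 1 to 8, are shown because the results turn on how alike they are. They are the entries of RefSeq (GRCm38.p6), written 5′ to 3′, with the seed in capitals.
miR-101a-3p: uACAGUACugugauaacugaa
miR-101b-3p: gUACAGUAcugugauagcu
miR-101c: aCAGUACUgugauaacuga
miR-144-3p: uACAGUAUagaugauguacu
miR-199a-3p: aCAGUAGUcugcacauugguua

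miR-101a-3p has 21 bases and lies at chr4:101346957-101346977 on the minus strand, and miR-101b-3p has 19 bases and lies at chr19:29135338-29135356 on the plus strand. In the RefSeq annotation Mir101a lies within the long noncoding RNA gene E130102H24Rik, and Mir101b lies within Rcl1, a protein-coding gene for a nucleolar protein of ribosomal RNA processing. The annotation table used gives genes without their exons, so the place within the host was not determined. The nearest other miRNA genes on these chromosomes are Mir872 and Mir3970, at a distance of 6681708 and 4021737 bp, so neither gene belongs to a miRNA cluster with another entry of the table. As annotated, the miR-101b entry starts 1 base earlier than miR-101a, so their seeds are shifted against each other, and each seed belongs to 1 mature name of the table only. The letters ACAGUA occurred within bases 1 to 8 of 6 of 1679 mature names (0.357%), which are miR-101a-3p, miR-101b-3p, miR-101c, miR-144-3p, miR-199a-3p, and miR-199b-3p. miR-101c (19 bases, chr9:3038680-3038698, minus strand) is contained whole in the sequence of miR-101a-3p. It has no name of its own among the array's miRNAs, and both miR-101a probes cover it.

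The pair is shown aligned below, with the base that differs in capitals. The second line is the stretch of the Mir101b precursor from the same start as miR-101a, and it runs 3 bases past the annotated 3′ end of miR-101b-3p.
miR-101a-3p: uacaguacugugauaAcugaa
Mir101b stretch: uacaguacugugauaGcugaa

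Over these 21 bases there was 1 difference, A16G, counted from the first base of miR-101a-3p with the base of miR-101a first. The 4 array probes, read from the scanner files and written as DNA 5′ to 3′, carry this difference at base 6 from their 5′ end, shown in capitals.
miR-101a probe of 20 bases: ttcagTtatcacagtactgt
miR-101a probe of 21 bases: ttcagTtatcacagtactgta
miR-101b probe of 17 bases: ttcagCtatcacagtac
miR-101b probe of 18 bases: ttcagCtatcacagtact

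The array's own annotation places the miR-101a probes at chr4:101019601-101019620 and the miR-101b probes at chr19:29209833-29209849 of mm9, each span 1 base shorter than its longest probe. Both miR-101b probes pair with the 3 bases beyond the annotated end of miR-101b-3p. How much of each RNA binds the other's probes was not tested. Probes that differ in sequence and length also bind with different strength, so the levels of both miRNAs were compared only as changes.

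miR-101a was detected on 11 of 12 arrays. Its total signal, the sum over its probes in intensity units with the background subtracted and no scaling between arrays, was 226, 211, 278, and 173 at day 1. At day 3 it was 197, 141, 141, and 81.7, and at day 5 it was 717, 492, 718, and 475. Every array of day 5 lay above every array of days 1 and 3, and the day 3 arrays lay mostly below those of day 1, with overlap. The lowest value, 81.7 on the array of day 3 replicate 4, was the one not detected, with an error of 42.2 given by the scanner software. The largest such error, 92.0, belonged to the array of day 5 replicate 4, beside its signal of 475. Divided by the local background around its spots, the total signal of miR-101a was 2.06 to 3.48 at day 1, 1.21 to 2.14 at day 3, and 5.89 to 9.54 at day 5. By this measure the values of day 3 were the ones nearest to background. Single arrays of the other days also had few spots marked well above background by the software. For the probes of 20 and 21 bases these were 0 and 0 on day 1 replicate 1, and 0 and 4 on day 5 replicate 4. On day 3 replicate 1 they were 4 and 7, and on day 3 replicate 4 they were 0 and 0. On the other arrays of day 5 all spots used carried the mark.

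miR-101b was detected on all 12 arrays. Its total signal was 581, 431, 581, and 365 at day 1, 416, 309, 312, and 290 at day 3, and 568, 411, 562, and 375 at day 5. Days 1 and 5 spanned nearly the same range, the values of day 3 lay lower with overlap, and no array of day 5 rose above the highest array of day 1. Divided by the local background, its total signal was 4.57 to 6.65, 3.93 to 4.65, and 5.06 to 7.97 at days 1, 3, and 5.

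**Figure D1:**
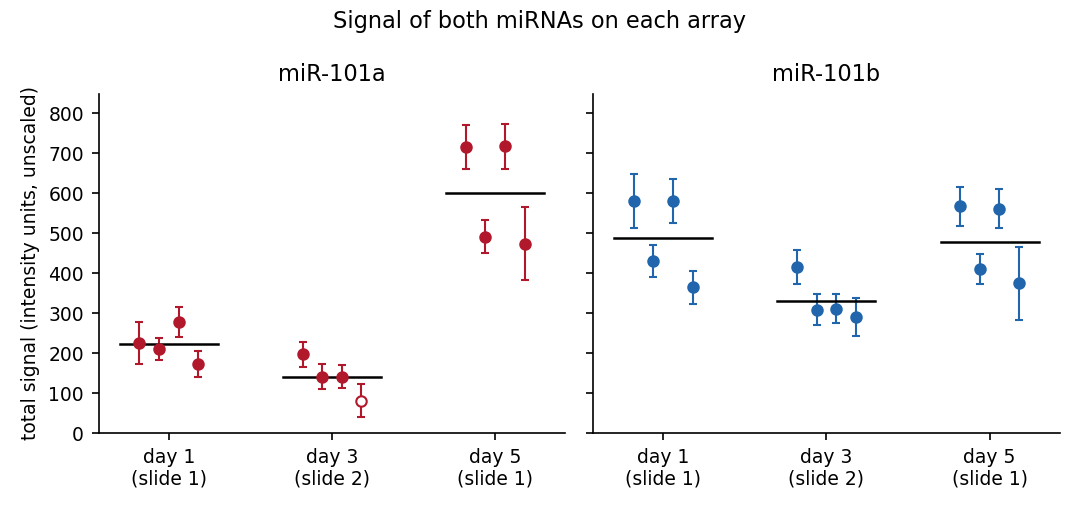
Total signal (y axis, intensity units, not scaled between arrays) of miR-101a (left) and miR-101b (right) on each of 4 arrays per day (x axis, with the slide). Points are arrays, bars are the error given by the scanner software, horizontal lines are means of the day, and the open point was not detected. The day 5 arrays of miR-101a lie between 475 and 718, above all others, while the days of miR-101b overlap.

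After quantile normalization of the detected miRNAs, the log2 level of miR-101a was 7.45 ± 0.20 (SD, n = 4) at day 1, 7.46 ± 0.67 at day 3, and 9.21 ± 0.22 at day 5. On the 4 arrays it was 7.21, 7.40, 7.71, and 7.47 at day 1, then 7.94, 7.69, 7.76, and 6.47 at day 3, and finally 9.22, 9.05, 9.51, and 9.05 at day 5. Days 1 and 3 overlapped, with a difference of 0.02 that was far below their spread. The difference between days 5 and 3 was 1.74 (3.34-fold), and between days 5 and 1 it was 1.76 (3.38-fold), with no overlap in either. Among all 334 miRNAs, 22.5% had every array of day 5 above every array of day 3, and 32.6% had every array of day 5 above every array of day 1. The change of miR-101a ranked 184th from the largest rise between days 1 and 3, 20th between days 3 and 5, and 69th between days 1 and 5. Without the array of day 3 on which it was not detected, the mean of day 3 was 7.80 ± 0.13 (n = 3), which gave a difference of 0.35 from day 1 and left 1.41 between days 3 and 5.

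For miR-101b the normalized log2 level was 8.54 ± 0.12 (n = 4) at day 1, 8.82 ± 0.12 at day 3, and 8.81 ± 0.18 at day 5. Arrays of each pair of days overlapped. The differences were 0.27 between days 1 and 3, -0.01 between days 3 and 5, and 0.26 between days 1 and 5, with ranks of 156th, 180th, and 155th of 334. Days 3 and 5 did not differ beyond their spread, and day 1 lay lowest, a step whose direction turned without scaling (differences of -0.55 from day 1 to day 3 and -0.027 from day 1 to day 5).

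Scaling mattered for the step to day 3. Without any scaling the median change of all 334 miRNAs was -0.77 between days 1 and 3, 0.36 between days 3 and 5, and -0.50 between days 1 and 5, against 0.18, 0.00, and 0.11 after quantile normalization. Taken relative to these medians, the unscaled changes of miR-101a were 0.07, 1.78, and 1.92, and those of miR-101b were 0.23, 0.16, and 0.47. The corresponding normalized changes were -0.17, 1.74, and 1.65 for miR-101a and 0.09, -0.01, and 0.15 for miR-101b. Relative to the medians, the change of miR-101a lay in the step from day 3 to day 5 on either scale. This timing rests on the level of day 3, which cannot be told apart from its slide.

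The ratio of both miRNAs on the same array does not depend on a scaling factor between arrays, and it is given relative to its mean at day 1. It does depend on how the background is treated. With normexp background correction, the change of miR-101a minus that of miR-101b was 0.93 from day 3 to day 5. From day 1 to day 5 it was 0.78. In the main setting these were 1.75 and 1.49. The ratio of miR-101a to miR-101b was 0.855, 1.07, 1.05, and 1.04 at day 1 and 1.04, 1.00, 0.990, and 0.618 at day 3, the last on the array without detection of miR-101a. At day 5 it was 2.77, 2.63, 2.80, and 2.78. The 4 arrays of day 5 thus lay close together although their unscaled signals of miR-101a ran from 475 to 718, and all of them lay above all 8 arrays of the earlier days. As means on the log2 scale, the ratio was 0.00 ± 0.15 (n = 4) at day 1, -0.16 ± 0.36 at day 3, or 0.02 ± 0.04 (n = 3) without the array lacking detection, and 1.46 ± 0.04 at day 5, equal to 2.74-fold. After quantile normalization the mean log2 ratio at day 5 was 1.49, and at day 3 it was -0.26.

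**Figure D2:**
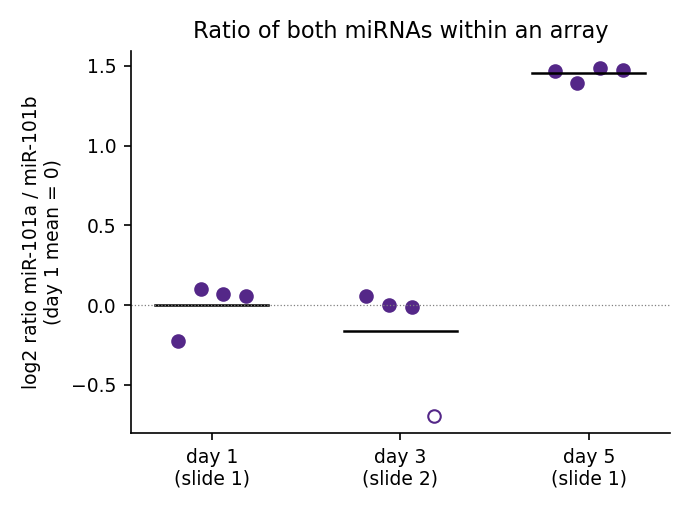
Log2 ratio of the total signals of miR-101a and miR-101b on the same array (y axis, mean of day 1 set to 0) for 4 arrays per day (x axis, with the slide). Points are arrays, lines are means, and the open point is the array on which miR-101a was not detected. The day 5 arrays lie between 1.39 and 1.49, and no earlier array lies above 0.10.

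Each miRNA was read by 2 probes of 10 spots each, and both probes of a miRNA moved in the same manner. The miR-101a probe of 20 bases changed by 1.51 on the unscaled log2 scale from day 1 to day 5 and by 2.28 from day 3 to day 5. The probe of 21 bases, which reads the same RNA with 1 base more, changed by 1.37 and 2.02. For miR-101b the probe of 17 bases changed by -0.02 from day 1 to day 5 and by 0.55 from day 3 to day 5, and the probe of 18 bases by -0.02 and 0.50. On every array 8 to 10 spots per probe were used, none of them saturated, and the median coefficient of variation among the spots of a probe lay between 11.9 and 31.9%. The probes of a miRNA overlap in sequence and read the same RNA extract, so they check the array and are not replicates of the culture.

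**Figure D3:**
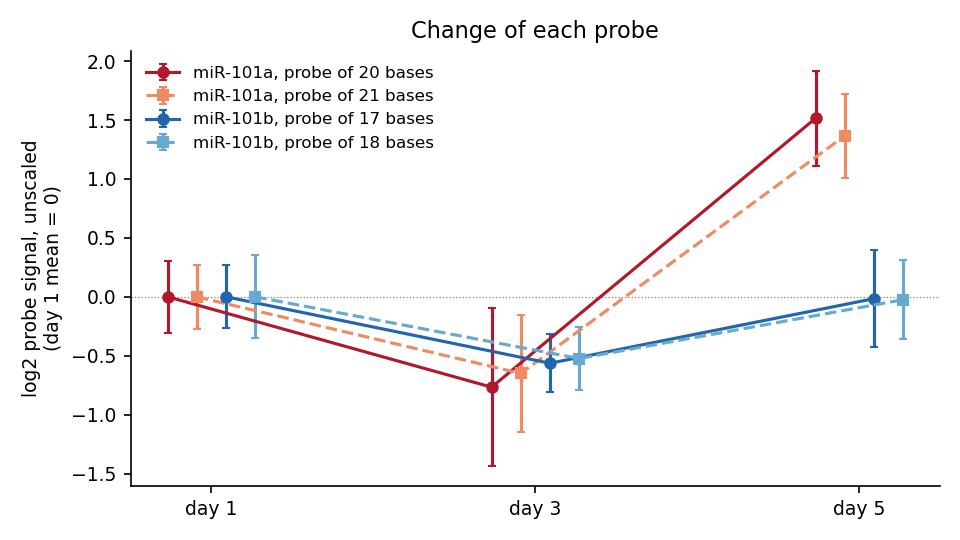
Unscaled log2 signal of each of the 4 probes relative to its mean at day 1 (y axis) at days 1, 3, and 5 (x axis), as mean with SD over 4 arrays. Both miR-101a probes end at 1.51 and 1.37 at day 5, whereas both miR-101b probes return to -0.02.

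miR-101a*, the strand opposite to miR-101a in its hairpin and usually the one degraded, was detected on 0 of 12 arrays. Its total signal lay between -124 and 0.334 over 4 probes of 13 to 16 bases, so no level of it could be set beside the rise of miR-101a. The -124 was on the array of day 5 replicate 4, and the next lowest value was -35.4. Other undetected miRNAs also lay far from 0 on that array, in both directions, such as miR-144 at -198 and miR-133b at 85.2. miR-101b* and miR-101c were not analysed here.

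Of the 2 relatives by seed letters on the array, miR-199a-3p showed the same course as miR-101a. Its total signal was 604, 521, 443, and 211 at day 1, 285, 206, 233, and 229 at day 3, and 1763, 1539, 1257, and 1254 at day 5. No day 5 array overlapped with an earlier day. The normalized change was 0.09 between days 1 and 3 (limma, adjusted p = 0.709), and it rose by 2.13 with a standard error of 0.21 between days 3 and 5 (limma, adjusted p = 4.17e-05), in a comparison in which 14.7% of all miRNAs were called higher. miR-199a-3p belongs to a cluster transcribed mainly in mesenchymal cells. The other relative, miR-144, is an erythroid miRNA with the same bases 2 to 7 as miR-101a. It was detected on 2 of the 4 day 1 arrays and on none of the later ones, at least 4.65-fold lower at day 3 and at least 5.06-fold lower at day 5 than at day 1 (limma, adjusted p = 2.39e-09 and 1.79e-09), comparisons in which 25.1% and 29% of all miRNAs were called lower. After normalization every later value of miR-144 stood at the floor of 1 set before log2, with an SD of 0. These p-values therefore do not rest on a measured spread at the later days. With normexp background correction, which adds an offset of 50, its changes were -0.96 and -1.06 (limma, adjusted p = 2.40e-05 and 6.71e-06). The 2 relatives thus ran in opposite directions between days 1 and 5.

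miRNAs known from other work to repress the same targets as miR-101 were read beside it. Of 6 such miRNAs for Ezh2, 4 were detected and tested. Between days 3 and 5, where 25.4% of all miRNAs were called, 0 of these 4 were called in either direction at an adjusted p of 0.01 in limma, and 1 had an unadjusted p under 0.05. miR-26a and miR-26b passed in this step without scaling, and miR-214 with normexp background correction. Between days 1 and 3, miR-98, a member of the let-7 family, rose by 1.21 (limma, adjusted p = 7.24e-05) where 27.2% of all miRNAs were called higher, a step that no longer passed without scaling (0.17, limma, adjusted p = 0.634). Between days 1 and 5 it rose by 1.27 (limma, adjusted p = 3.04e-05), which without scaling was 0.84 and no longer passed (limma, adjusted p = 0.0194). miR-214 also rose between days 1 and 5, but was detected on only 1, 0, and 3 arrays at days 1, 3, and 5. After quantile normalization miR-26a, at 13.21, 13.17, and 13.45, and miR-26b did not pass in any comparison. miR-138 and miR-124 were not detected on any array. Over the 4 tested, the median change between days 3 and 5 was 0.23, against 0.00 for all miRNAs.

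Of the 3 miRNAs listed for Ptgs2, all were tested, and 1 was called higher between days 3 and 5, miR-199a-3p, in a comparison with 14.7% called higher of all miRNAs. miR-143, a miRNA of smooth muscle and fibroblasts, was detected on no array of days 1 and 3 and on 3 arrays of day 5. Its total signal was 13.8, 52.4, 38.6, and 25.5 at day 1, 42.7, 18.7, 25.9, and 19.6 at day 3, and 424, 349, 295, and 194 at day 5. It was called higher at day 5 than at day 1 (limma, adjusted p = 7.50e-05), for which no fold is given because normalization set part of its day 1 values at or close to the floor. It was at least 6.78-fold higher at day 5 than at day 3. This step missed the threshold after quantile normalization (limma, adjusted p = 0.0180) but passed in 7 of 21 alternatives, among them those with other scaling or none (limma, adjusted p from 0.000262 to 0.00210), which would make the count 2 of 3. miR-26b belongs to this list too. The median change of the list between days 3 and 5 was 2.13.

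Of the 6 miRNAs listed for Mcl1, 5 were tested, and 3 rose between days 3 and 5, against 14.7% of all miRNAs. All 3 were of the miR-29 family, which is also known for its action on collagen mRNAs. Among these 3, miR-29a had the smallest early step after quantile normalization. Its levels were 14.01 ± 0.09, 14.12 ± 0.05, and 14.96 ± 0.09 (SD, n = 4) at days 1, 3, and 5. It did not pass between days 1 and 3 (0.11, limma, adjusted p = 0.224) and rose by 0.84 between days 3 and 5 (limma, adjusted p = 2.04e-05). miR-29b rose at both steps, by 1.11 and 0.80, although without scaling the first was 0.16 and no longer passed, and the second no longer passed with 75th percentile scaling over all miRNAs (0.87, limma, adjusted p = 0.0124). miR-29c rose by 0.47 at both steps, of which the first turned to -0.47 without scaling and no longer passed with that 75th percentile scaling (0.33). By contrast, miR-193 and miR-193b moved early. miR-193 rose by 3.58 between days 1 and 3 (limma, adjusted p = 4.97e-05) and changed by -0.14 thereafter (limma, adjusted p = 0.875). It was detected on only 1 array of day 1, so the size of its early rise is uncertain. Over the 23 alternatives that rise ran from 1.33 to 8.54, and the call was kept in each. miR-193b was detected on no array of day 1 and on all later ones, with a total signal of 100, 10.4, 44.9, and 61.7 at day 1 and 148, 147, 132, and 264 at day 3. It was called higher at day 3 than at day 1 (limma, adjusted p = 0.00566), but the call was lost in 7 of 22 alternatives, and no fold is given because normalization set part of its day 1 values close to the floor. Between days 1 and 5 all 5 tested members of this list were called higher, where 31.7% of all miRNAs were, but miR-193b missed the threshold there in 14 of 23 alternatives, 9 of them among the 12 that leave out an array (limma, adjusted p from 0.00105 to 0.0291 over all 23). miR-133b was not detected on any array. The median change of the list between days 3 and 5 was 0.47.

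Of 334 miRNAs, 14 (4.19%) were called higher between days 3 and 5 but not called between days 1 and 3. miR-101a was chosen for this pattern, so its place among them is a description and no test of its rise. Ordered by the size of the late step, miR-101a stood 6th of these. miR-199a-3p, miR-342-3p, miR-146a, miR-362-5p, and miR-29a were among the others.

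**Figure D4:**
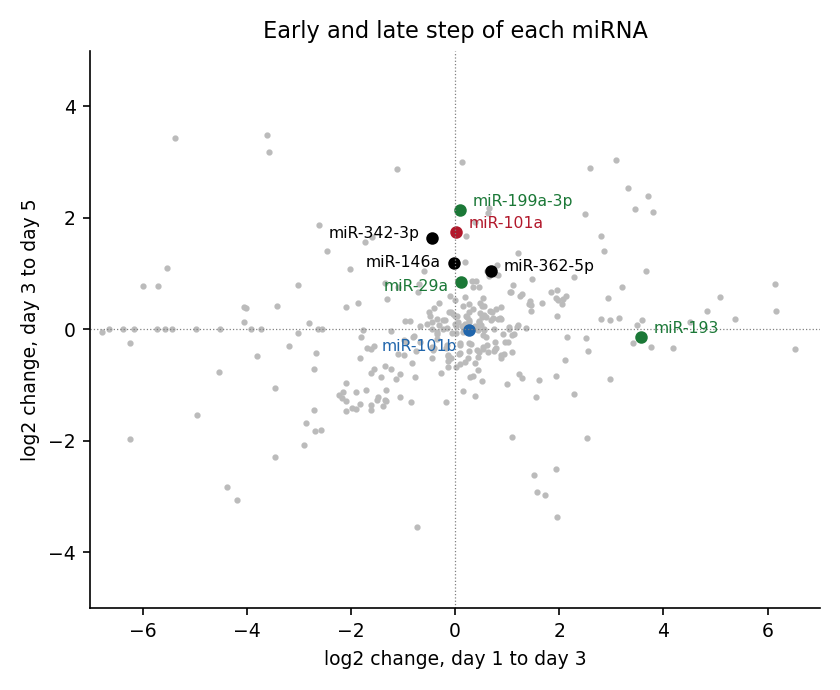
Normalized log2 change from day 1 to day 3 (x axis) and from day 3 to day 5 (y axis) of each miRNA, with 324 of 334 inside the axes. Red and blue mark miR-101a and miR-101b, green marks listed miRNAs, black marks miRNAs with a profile like that of miR-101a, and grey marks the rest. miR-101a lies near 0 on the x axis and at 1.74 on the y axis, next to miR-199a-3p, and miR-101b lies close to the origin.

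The likeness of profiles was measured as the root mean square difference of log2 values over the 12 arrays, each miRNA centred on its own mean, so that a smaller value is a closer course. The 5 miRNAs closest to miR-101a were miR-362-5p (0.371), miR-146a (0.486), miR-362-3p (0.494), miR-532-5p (0.497), and miR-342-3p (0.498). Of these, the genes of miR-362 and miR-532 lie near each other on chromosome X, with Mir188 between them. miR-146a, a feedback inhibitor of NF-κB signaling that targets Traf6 and Irak1, stood at 11.75 ± 0.17, 11.72 ± 0.06, and 12.90 ± 0.46 (n = 4) at days 1, 3, and 5. Its early step was -0.03 and its late step 1.19. miR-342-3p, located in an intron of Evl, had steps of -0.43 and 1.65. miR-362-5p had steps of 0.69 and 1.04, so that its rise was shared between both intervals. miR-199a-3p followed at 0.500. When the means of the days were used in place of the arrays, 1 of these 5 was among the closest 5.

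The 5 closest to miR-101b were miR-30e* (0.103), miR-21 (0.116), miR-19b (0.133), miR-140* (0.152), and miR-361 (0.178). All had a late step near 0, from 0.01 to 0.13. With the means of the days, 2 of these 5 remained. The difference between miR-101a and miR-101b themselves was 0.826, and neither was among the 5 closest to the other.

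Markers of other cell types moved over the same days and are given beside the rise of miR-101a. The stromal list (miR-199a-3p, miR-199a-5p, miR-143, miR-145, and miR-214) had a summed total signal of 494 to 896 at day 1, 403 to 529 at day 3, and 2432 to 3545 at day 5. Of its 5 members, 2 were called higher between days 3 and 5, miR-199a-3p and miR-199a-5p (2.13 and 2.09), and 4 between days 1 and 5, against 14.7% and 31.7% of all miRNAs. With other scaling or none, miR-143 also passed between days 3 and 5. miR-143, miR-145, and miR-214 were not detected on any array of day 3, and miR-145 on none of day 5. This list holds 2 of the miRNAs listed for Ptgs2 and 1 listed for Ezh2. The part of stromal cells in the signal of miR-101a was not tested. The erythroid markers on the array (miR-451 and miR-144) went the other way, from a summed 29020 to 57393 at day 1 to 124 to 295 at day 5. The lymphoid markers (miR-150, miR-181a, and miR-181b) were at an unscaled sum of 2471 to 3336, 1267 to 1525, and 1594 to 2026 at days 1, 3, and 5. miR-150 was not detected on any array of days 3 and 5. The other members went opposite ways after normalization. Between days 1 and 3 miR-181a changed by -0.96 and miR-181b by 0.79 (limma, adjusted p = 0.000250 and 0.000389). There 25.1% of all miRNAs were called lower and 27.2% higher. miR-223, listed as granulocytic, had an unscaled signal of 82084 to 85627 at day 1, 39484 to 47670 at day 3, and 55476 to 62758 at day 5. Over the 4 arrays of a day, 80 of its spots were saturated at day 1 and 8 at day 5, so those values may be too low. After normalization it changed by -0.44 between days 1 and 3 and by 0.01 between days 3 and 5. The megakaryocytic marker miR-126-3p was not detected on any array of days 3 and 5.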

How the data were processed

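The intensity values deposited by the authors were extracted from the scans with Feature Extraction 9.5.3.1. They are linear, background-subtracted, and unscaled between arrays, and each miRNA carries a detection mark. A second deposited table gives the authors' log2 values, quantile normalized in GeneSpring and empty without detection. No columns of comparisons were used.

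For the 334 miRNAs with detection on any array, total signals were quantile normalized, raised to a floor of 1 (372 values, 9.28%), and converted to log2 with limma 3.58.1 in R 4.3.3. A linear model with 1 mean per day was fitted (lmFit, eBayes), and contrasts were called at a Benjamini-Hochberg adjusted p under 0.01. The code was tested on simulated data. A miRNA not detected on any array of a day was given a bound, from the higher of its value and the lowest detected signal on each array, except against day 1, where the lowest detected signals lay near 0. The precision was limited by the 4 arrays per day.

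The members and lists were chosen with earlier results of these data known. Named were both members, the opposite strand, relatives by seed letters, miRNAs listed for Ezh2, Ptgs2, and Mcl1, the 5 closest profiles for each member, and the marker lists. Of the erythroid list, miR-144* and miR-486 were not analysed here. Sequences came from RefSeq (GRCm38.p6), the scanner files listing mm9. Tables and figures were made with matplotlib 3.10.9, scipy 1.17.1, pandas 2.3.3, and numpy 2.4.6 in Python 3.11.15. Alternatives covered the filter, scaling, background, floor, threshold, test, replicate block, and each array left out.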

Additional observations from a re-analysis of the deposited data

Results flagged for a closer look

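In 6 of 45 groups of 4 arrays, the highest or lowest array lay farther from the others than Dixon's 95% limit, a limit that chance passes in about 1 of 20 groups. For miR-101a this was the array of day 3 without detection, with a normalized log2 level of 6.47 against 7.69 to 7.94 on the other three. The same array had a log2 ratio of miR-101a to miR-101b of -0.69, against -0.01 to 0.06. At day 1 the ratio of replicate 1 was -0.23, against 0.06 to 0.10. At day 5 the ratio of replicate 2 was 1.39, against 1.47 to 1.49, a gap of small size in a narrow group. miR-193 was at 3.87 on 1 array of day 1, against 5.90 to 6.19, and miR-193b was at 8.50 on 1 array of day 3, against 7.61 to 7.74.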

How the results depend on the processing

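The rise of miR-101a to day 5 kept its direction under each alternative run. Its change from day 3 to day 5 was 1.00 with normexp background correction and 2.98 with the authors' values, and from day 1 to day 5 it was 1.02 and 3.89, or 1.42 with 75th percentile scaling over miRNAs detected on all arrays and 1.43 without scaling. From day 1 to day 3 it was -0.71 without scaling and 0.91 with the authors' values, which are empty for 1 day 3 array and run from 2.66 to 6.62 at day 1. A filter for detection on all 12 arrays gave no value for miR-101a. For miR-101b that filter gave -0.16 from day 1 to day 3 and -0.30 from day 1 to day 5. Its changes without scaling were -0.55, 0.52, and -0.027, and with 75th percentile scaling over miRNAs detected on all arrays they were -0.22 from day 3 to day 5 and -0.037 from day 1 to day 5, where that scaling over all miRNAs gave 0.026 and 0.27. The change of miR-101a minus that of miR-101b, a measure added after seeing the data, was -0.26, 1.75, and 1.49 for the 3 comparisons. It was 0.93 (days 3 to 5) and 0.78 (days 1 to 5) with normexp, and 0.67, 2.92, and 3.59 with the authors' values. The causes of these shifts were not tested.

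Leaving out each array gave, from day 1 to day 3, day 3 to day 5, and day 1 to day 5, -0.14 to 0.35, 1.41 to 1.90, and 1.66 to 1.84 for miR-101a, 0.22 to 0.33, -0.08 to 0.07, and 0.20 to 0.34 for miR-101b, and -0.39 to 0.02, 1.47 to 1.88, and 1.42 to 1.53 for the difference between both.

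Of 210 miRNAs changed over the days, 114 were called with detection on all arrays, where fewer were tested. From day 1 to day 3, 175 became 80 with that filter and 115 with the authors' values, and from day 1 to day 5, 203 became 109 with that filter. From day 3 to day 5, 85 became 40 with 75th percentile scaling over all miRNAs. The 14 with a late rise alone became 9 with detection on all 4 arrays of a day, 37 without scaling, 9 with the processed spot signal, and 7 with the authors' values. Leaving out each array gave 194 to 216 over the days, 150 to 179, 62 to 89, and 185 to 199 in the comparisons, and 12 to 18 with a late rise alone. The methods' one-way analysis of variance called 214 at an unadjusted p under 0.01, and 201 after adjustment. Without scaling, miR-143 from day 1 to day 3, detected on neither day, turned to -0.20, and miR-29c to -0.47. Of the other values of listed miRNAs, 783 kept their side of the threshold (17 with the other sign, not called in either), 43 lost and 14 gained it. Whether equal replicate numbers pair cultures could not be told from correlations of their deviations from the day means. These ran from -0.44 to 0.70 (median 0.19) for equal numbers and from -0.66 to 0.62 (median -0.02) for unequal ones. With the replicate number as a block 206 miRNAs changed over the days, with 176, 74, and 200 in the comparisons and 13 with a late rise alone.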
